A study of Mus musculus with 8 samples.

Results

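The 76 genes described here carry the symbols of mitochondrial ribosomal proteins, and 75 of them encode proteins of that ribosome. They were taken by symbol: every one of the form Mrpl or Mrps followed by a number and at most 1 letter, among the 20029 genes of the table. Expression was measured by RNA-seq in CD8+ T cells sorted from MC38-OVA tumours, a mouse colon carcinoma line that carries the model antigen ovalbumin, grown under the skin of 4 Pglyrp1 KO mice (strain B6.129S4-Pglyrp1tm1.1Lky/J; KO libraries 1 to 4) and 4 wild-type C57BL/6J mice (WT libraries 6 to 9). Both groups carried the same tumour and each library came from 1000 sorted cells; age, sex and the day of sorting are not given in the labels. The comparison asks how the loss of Pglyrp1, a secreted peptidoglycan-binding protein, relates to the RNA of tumour-infiltrating CD8+ T cells. The KO strain lacks the gene in the whole animal, so an effect within the T cells and one through other host cells cannot be told apart in this design.

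Mitochondria keep their own ribosome, which translates only the few proteins encoded in mitochondrial DNA, all of them subunits of the respiratory chain and ATP synthase. Its proteins are encoded in the nucleus, made on cytosolic ribosomes and imported; the large subunit forms the peptide bonds and the small subunit reads the messenger. Part of the proteins descend from those of the bacterial ribosome and part are found in mitochondria only. In CD8+ T cells, mitochondrial translation is known to be needed for expansion after activation and for sustained killing.

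By known structure 49 belong to the large subunit, among them Mrps18a and Mrps30, which carry small-subunit symbols but sit in the large subunit, and 26 belong to the small subunit. The remaining gene, Mrps36, goes against the name: its product is now known as a part of the 2-oxoglutarate dehydrogenase complex and was counted in neither. By homology 44 members were counted as having a bacterial counterpart and 29 as specific to mitochondria. Mrps18b, a paralog of bacterial S18, was counted among the 29, and Mrps18a, Mrpl55 and Mrps36 were counted in neither class. The 7 further subunits with other names fall outside the rule, among them Dap3, Chchd1 and Mrp63, an older symbol of Mrpl57.

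The genes are spread over 17 chromosomes, with 10 on chromosome 11, 8 on chromosome 17 and 6 on chromosome 7. Mrps12 is the member nearest to the knocked-out locus, 9.85 Mb from Pglyrp1 (chr7:18884690-18890438, mm10). Of the 76 genes, 17 (22.4%) had the start of another coding gene on the opposite strand within 1000 bases upstream. The same held for 1484 of 21911 coding genes (6.77%), by the outermost gene ends in GENCODE vM21. That background includes genes that were not tested here, and the share over the tested genes alone was not computed. Pairs whose ends overlap, such as Mrpl46 and Mrps11, were not counted. Examples are Mrps18c and the helicase gene Helq, 29 bases apart, Mrpl49 and Fau, which encodes a protein of the cytosolic ribosome (59 bases), Mrpl32 and the proteasome gene Psma2 (75 bases), and Mrps12 and the mitochondrial seryl-tRNA synthetase gene Sars2 (172 bases). Their longest coding transcripts had a median length of 1284 bases (463 to 7300), against 2995.5 over the tested genes.

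Promoter windows show what these scattered genes share in sequence, so they were read from RefSeq (GRCm38.p6), from 250 bases before to 50 bases after each start. Windows were found for 67 of the 76 members; Mrpl4, Mrpl13, Mrpl15, Mrpl19, Mrpl38, Mrpl54, Mrps28, Mrps34 and Mrps35 had none. Exact matches were searched on both strands. The letters CCGGAAG, the core bound by ETS factors such as GABP, a known regulator of nuclear genes for mitochondrial proteins, occurred in 23 of 67 windows (34.3%). The share was 20.6% over the 8021 tested genes with a window, 9.12% over all 27025 windows, 39.1% for cytosolic ribosomal proteins and 22.7% for nuclear respiratory chain subunits. The letters AAGATGGC, bound by YY1, occurred in 12 of 67 (17.9%), against 5.25% of tested genes, 2.88% of all windows, 12.1% of respiratory chain subunits and 7.81% of cytosolic ribosomal proteins. The NRF1 palindrome (GCGC, then AT, then GCGC) was in 3 of 67 (4.48%), against 2.33% of tested genes and 7.58% of respiratory chain subunits, a higher share than the members'. CCAAT (40.3% of members, 40.1% of tested genes) and the GC box GGGCGG (49.3% and 64.6%) are given as common promoter elements. In all, 34 of the 67 windows held at least 1 of the ETS, YY1 and NRF1 motifs, and 3 held both ETS and YY1. These are matches of letters, not measured binding, and the motifs were chosen with the members known.

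**Figure D1:**
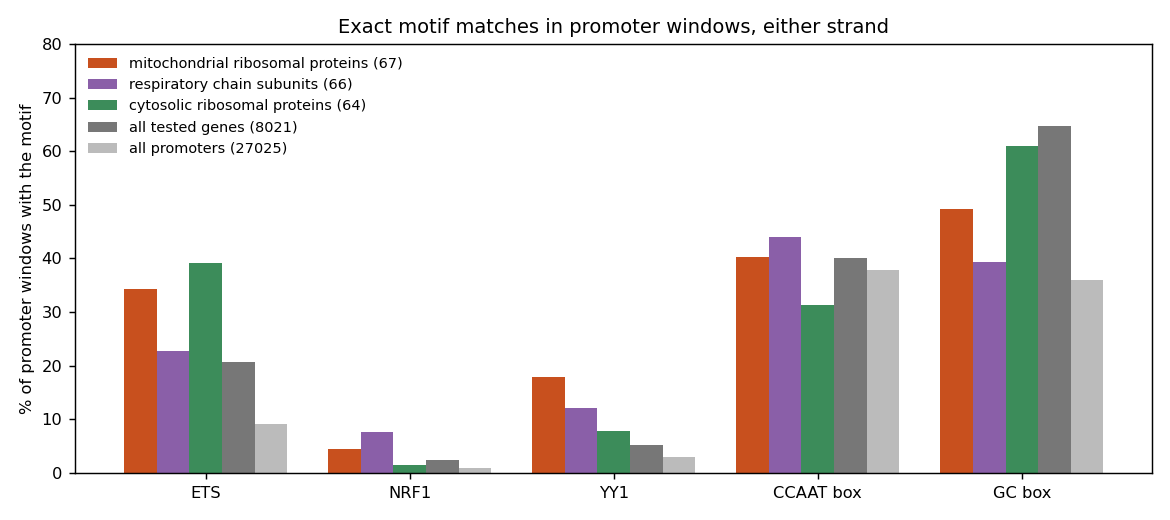
Share of promoter windows (y axis, %) that hold an exact match to each of 5 motifs (x axis), for 5 sets of genes. CCGGAAG is in 34.3% of member windows against 20.6% of tested genes, AAGATGGC in 17.9% against 5.25%, and CCAAT in nearly equal shares.

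In 8 of the 12 members with the YY1 letters these lay on the gene's own strand just after the start, between 11 and 43 bases downstream, and 5 of these 8 are shown to let the shared core be compared (capitals mark AAGATGGC; each is written 5′ to 3′ on the gene's strand).
Mrps18a (chr17:46111004-46111033, plus strand): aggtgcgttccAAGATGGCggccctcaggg
Mrps27 (chr13:99344789-99344818, plus strand): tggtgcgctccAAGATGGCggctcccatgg
Mrps7 (chr11:115604147-115604176, plus strand): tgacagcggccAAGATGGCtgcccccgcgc
Mrpl35 (chr6:71823743-71823772, minus strand): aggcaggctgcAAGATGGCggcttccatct
Mrpl49 (chr19:6057721-6057750, minus strand): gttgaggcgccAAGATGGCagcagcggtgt

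The ETS letters were found 27 times in 23 windows, 16 of these within 100 bases before the start. They are shown for members whose levels are described below: 3 of the most abundant (Mrpl33, Mrpl52, Mrps21), 2 with a higher mean in KO (Mrpl53, Mrpl27) and 1 with a lower mean (Mrpl3). Capitals mark CCGGAAG, each written on the strand that reads it.
Mrpl33 (chr5:31613937-31613965, plus strand): ccgcgcatgccCCGGAAGtagtcgttgag
Mrpl52 (chr14:54426851-54426879, minus strand): tgccgggaaaaCCGGAAGccgacatcttg
Mrps21 (chr3:95871479-95871507, plus strand): gtctctgcggaCCGGAAGcggaagctacg
Mrpl53 (chr6:83109038-83109066, plus strand): ccgcggagccgCCGGAAGcggtccgttcc
Mrpl27 (chr11:94653725-94653753, plus strand): gtccgcaagacCCGGAAGtagatctatcc
Mrpl3 (chr9:105053238-105053266, plus strand): tgagaaacggaCCGGAAGtggcccggctg
The motif thus occurred beside members that stood on either side of 0 in the comparison of genotypes.

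The libraries were checked before the members were compared. The targeted gene Pglyrp1 had no signal in any of the 4 KO libraries and 123 to 210 TPM in WT (TPM here means the deposited values rescaled to 1000000 per library). The defining markers Cd8a (376 to 506 TPM), Cd8b1 and Cd3e were high in all 8 libraries. Summed over 18 myeloid genes, KO libraries 3 and 4 had 3119 and 5820 TPM against 112 to 411 in the other libraries, and 14 of the 18 were higher in both than in every other library; the macrophage marker Adgre1 was at 8.38 and 24.0 TPM there and at 0 in KO library 1 and all WT libraries. The 10 NK cell genes summed to 233 to 2679 TPM in KO and 74.7 to 109 in WT. Tyrobp and Fcer1g, which myeloid cells also express, gave 2276 and 2605 TPM of this in KO libraries 3 and 4, and the other 8 genes summed to 72.8 to 113 TPM in KO and 26.1 to 46.7 in WT. The WT group was split as well: summed over 10 naive and memory T cell genes, WT libraries 6 and 9 had 2328 and 2084 TPM and WT libraries 7 and 8 had 593 and 693. By the same sum KO libraries 1 to 4 had 1415, 986, 892 and 398 TPM, so the KO group varied too. Of 15 proliferation genes 14 had a positive fold change (KO minus WT), and 8 were below every other library in both WT 6 and WT 9. The red cell gene Hba-a1 was at 1184, 931 and 456 TPM in KO library 1, KO library 4 and WT library 9 and at 1.20 to 44.5 TPM elsewhere, and Cd4 was at 66.7 TPM in KO library 3 and at 0.393 to 15.6 TPM elsewhere. Summed over 11 tumour epithelial and stromal genes, KO library 4 had 218 TPM and the other libraries 36.4 to 55.6 TPM. The 8 B cell genes summed to 52.4 and 50.3 TPM in WT libraries 6 and 9 and to 6.05 to 21.8 TPM elsewhere. The part of these differences in the values below was not tested beyond leaving the libraries out.

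In tumour CD8+ T cells of both genotypes all 76 genes were expressed. All 76 members passed the filter (at least 1 TPM in at least 4 libraries), which 10732 genes passed in all. Their mean levels over 8 libraries ran from 7.52 TPM (Mrpl1) to 325 TPM (Mrpl33), with a median of 57.5 TPM. The median was 14.8 TPM over all tested genes, 295 TPM for the 77 tested nuclear subunits of the respiratory chain, and 3232 TPM for the 83 tested proteins of the cytosolic ribosome. Although the subunits are held in the ribosome mostly in single copies, these RNA values thus covered a wide range. Whether the deposited scaling corrects for transcript length is not given in the sources used here, so levels of different genes are compared with that limit. Large-subunit genes had a median of 53.4 TPM and small-subunit genes 58.6 TPM; genes with a bacterial counterpart had 64.0 TPM and mitochondria-specific ones 42.2 TPM. Across the 76 genes, level and transcript length had a Spearman rho of -0.54 (-0.34 over the 9734 tested genes with a length), given as a description since the genes share the same libraries.

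**Figure D2:**
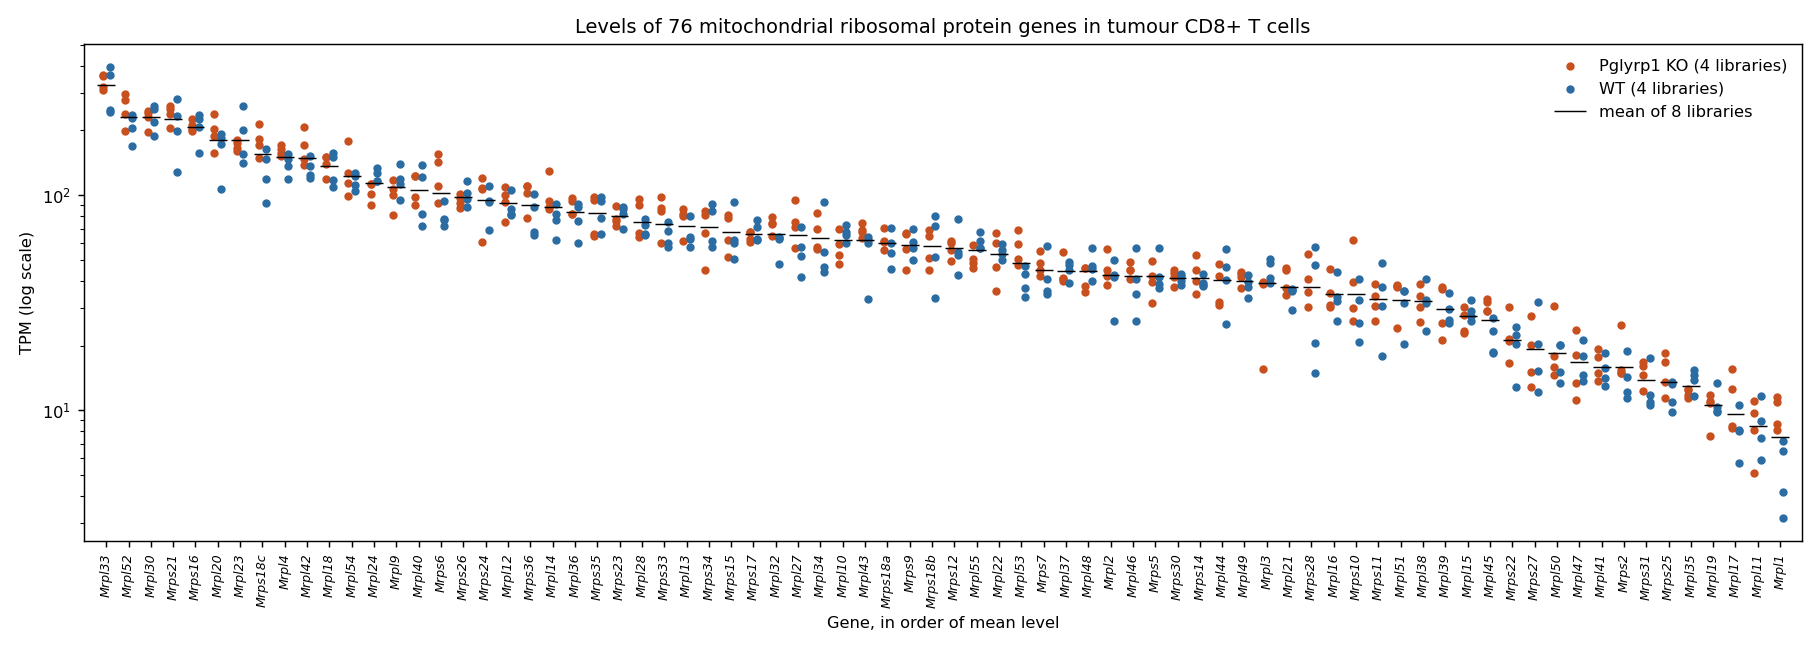
TPM on a log scale (y axis) of the 76 members in order of mean level (x axis); points are libraries (orange, KO; blue, WT) and dashes the mean of 8. Means run from 7.52 TPM for Mrpl1 to 325 TPM for Mrpl33, and KO and WT points lie on each other for most genes.

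The 5 most abundant members were Mrpl33, Mrpl52, Mrpl30, Mrps21 and Mrps16. Mrpl33 (chr5:31613951-31622644), a small protein of the large subunit, had 309, 362, 319 and 357 TPM in KO (libraries 1 to 4, in that order from here on) and 249, 363, 396 and 243 TPM in WT (libraries 6 to 9). WT libraries 6 and 9 were the lowest and the groups overlapped. Mrpl52, specific to mitochondria, had 238, 199, 296 and 277 TPM in KO and 169, 205, 236 and 228 TPM in WT. Mrpl30 had means of 229 ± 21.5 and 231 ± 32.7 TPM (KO and WT; SD, n = 4 each), and Mrps16 209.6 ± 12.4 and 206 ± 35.0. These 2 genes were nearly level between the groups. Mrps21, the counterpart of bacterial S21, had 239.5 ± 24.1 and 210.1 ± 63.6 TPM. The neighbours in this order from Mrpl52 to Mrps16 differed by less than the larger of their SDs.

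No member changed between genotypes by the test across all genes. Of 76 members 0 had a limma adjusted p under 0.05, where 3 of 10732 genes did (0.028%); the smallest adjusted p among members was 0.429. At an unadjusted limma p under 0.05 there were 5 members higher in KO (6.58%; 6.01% of all tested genes) and 0 lower (3.07% of all tested genes). This balance depended on scaling: median-ratio scaling gave 5 higher and 1 lower, quantile normalization gave 4 and 2, and there were 4 and 4 with the cytosolic ribosomal and 20 most abundant genes removed. Over all tested genes it was 666 and 418, 552 and 572, and 536 and 629 in the same settings. Groups did not overlap for 4 members with higher values in KO (5.26%, background 2.62%) and 1 with lower values (1.32%, background 2.4%). The fold changes were small: 74 of 76 were within 1.5-fold (97.4%, against 85.4% of all tested genes). The 95% interval lay within 2-fold in either direction for 70 of 76 (92.1%, against 62.8%). This was not particular to the members: 76 of 77 respiratory chain subunits (98.7%) and 80 of 83 cytosolic ribosomal proteins (96.4%) were within 1.5-fold. The intervals of 74 and 75 of these genes lay within 2-fold. In bulk samples such as these, fewer cells of a type and less RNA per cell cannot be told apart.

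A larger share of the members had a positive than a negative fold change, 52 of 76 (68.4%), against 55.2% of all tested genes. Their median log2 fold change (KO minus WT, on the log2(TPM + 1) scale) was 0.11, with the middle 50% between -0.05 and 0.24, beside 0.04 over all tested genes. The sign of the median depended on scaling. There were 2 scalings that moved the median of all genes by over 0.1 (log2): quantile normalization by -0.11, and removal of the cytosolic ribosomal set together with the 20 most abundant genes by -0.12. The members then had medians of 0.01 (39 positive, 51.3%, against 41.5% of all genes) and -0.02 (34 positive, 44.7%, against 41.3%). With median-ratio scaling 45 were positive (59.2%, against 49.97% of all genes). In the first 2 of these settings the difference from the all-gene median was 0.07 and 0.05, against 0.07 as reported. Over all 20 alternative settings the members' median stood between 0.04 and 0.10 above that of all genes. Among these, leaving out the mean trend or using robust variances alters no fold change, so those settings could not move this difference. A changed filter on low values could move only the all-gene median.

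The subunits gave similar counts, and their difference was not tested. Of the large-subunit genes 33 of 49 had a positive fold change (median 0.11), and of the small-subunit genes 18 of 26 (median 0.07). Genes with a bacterial counterpart had 30 of 44 positive (median 0.10) and mitochondria-specific genes 20 of 29 (median 0.11). Split by subunit, these classes had 17 of 28 and 15 of 19 positive in the large subunit. In the small subunit they had 13 of 16 and 5 of 10, the other way round, and this was not tested. The summed level of the large subunit over that of the small was 1.86 to 2.05 in the KO libraries and 1.96 to 2.06 in the WT libraries, with no separation of the groups.

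**Figure D3:**
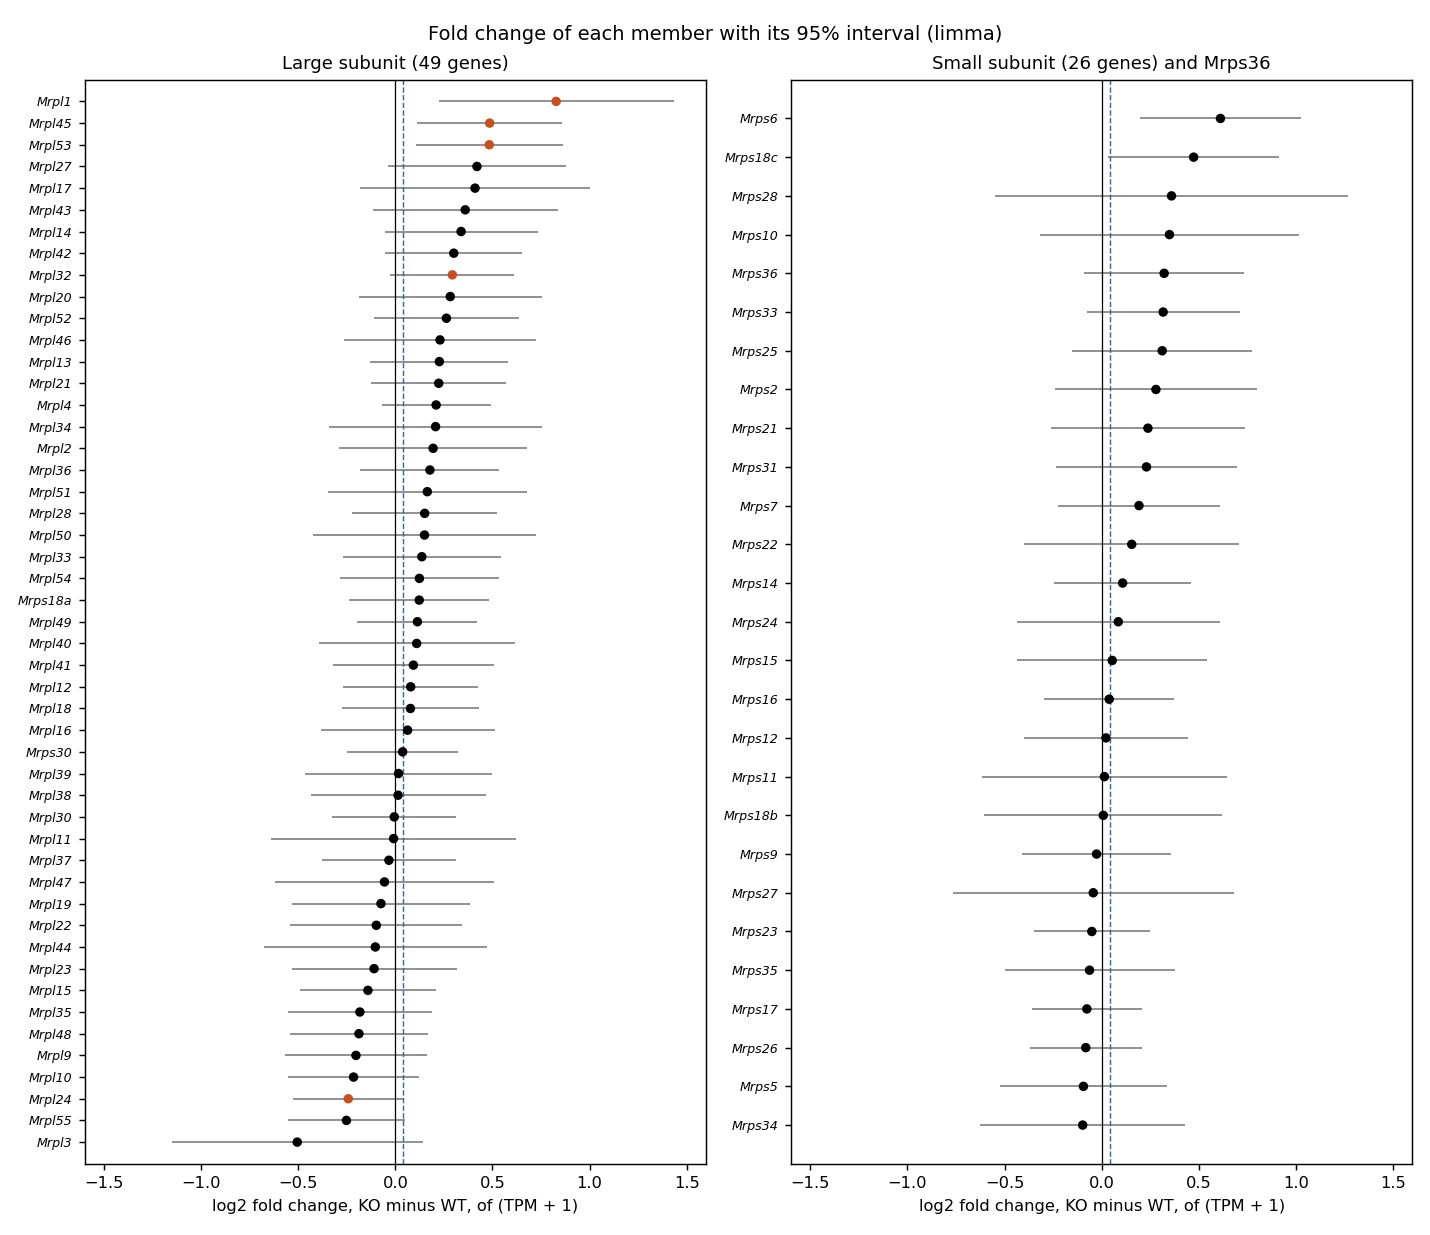
log2 fold change of each member, KO minus WT, with its 95% interval from limma (x axis), large subunit on the left and small subunit with Mrps36 on the right; the dashed line is the median of all tested genes (0.04) and orange marks the 5 members whose groups do not overlap. Most intervals span 0 and fold changes run from -0.51 (Mrpl3) to 0.83 (Mrpl1).

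Members with the smallest unadjusted p and higher values in KO included genes of both subunits. Mrps6 (chr16:92058336-92112227), a small-subunit protein with a bacterial counterpart, had 92.2, 110.0, 143 and 155 TPM in KO and 94.3, 77.4, 72.2 and 77.1 TPM in WT. KO libraries 3 and 4 were the highest, and KO library 1 lay below WT library 6. The log2 fold change was 0.61 (SE 0.18, limma adjusted p = 0.429; exact permutation p = 0.0571). It was 0.33 without KO libraries 3 and 4, the libraries with the high myeloid sums given above. Slc5a3, which shares 159 exonic bases with Mrps6 on the same strand, was at 3.47 to 6.31 TPM.

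Mrpl1 (chr5:96209498-96266727), a large-subunit protein of the stalk beside the tRNA exit site, was the lowest member by level. It had 8.66, 11.5, 8.08 and 10.9 TPM in KO and 6.50, 7.20, 4.17 and 3.15 TPM in WT, with no overlap. The log2 fold change of 0.83 (SE 0.27) was the highest of the set, with a limma adjusted p of 0.472. Mrpl45 (chr11:97314923-97329920), which ties the ribosome to the inner membrane next to the exit of the nascent chain, had 32.9, 31.7, 29.0 and 29.0 TPM in KO and 18.7, 27.0, 23.3 and 18.5 TPM in WT. The groups did not overlap, and WT libraries 6 and 9 were the lowest. Its log2 fold change was 0.49 (SE 0.17, limma adjusted p = 0.473), and 0.28 without those WT libraries.

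Mrpl53 (chr6:83109108-83109932), a mitochondria-specific large-subunit protein, had 59.6, 50.8, 47.6 and 68.6 TPM in KO and 46.7, 36.9, 43.1 and 33.8 TPM in WT. KO library 3, the lowest of its group, was just above WT library 6. The log2 fold change was 0.48 (SE 0.17, limma adjusted p = 0.476). Mrpl32 (chr13:14610301-14613037), a large-subunit protein whose cleavage by the m-AAA protease is needed for ribosome assembly, had 74.2, 78.9, 73.6 and 64.4 TPM in KO and 63.8, 63.4, 62.5 and 48.0 TPM in WT. The groups were apart by less than 1 TPM, between KO library 4 and WT library 6. The log2 fold change was 0.29 (SE 0.14, limma adjusted p = 0.573), and 0.20 without WT library 9. Psma2, on the other side of its promoter, had means of 584 and 490.3 TPM in KO and WT. For Mrpl1, Mrpl45, Mrpl53 and Mrpl32 the exact permutation p was 0.0286, unadjusted, the smallest that 70 assignments can give. Groups that do not overlap always give this value, so it restates the lack of overlap in members named for their small p.

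Mrps18c (chr5:100798759-100804467) is 1 of 3 paralogs of bacterial S18, of which Mrps18b is also in the small subunit and Mrps18a in the large. It had 149, 182, 171 and 214 TPM in KO and 119, 147, 164 and 92.0 TPM in WT, with overlap at WT library 8. The log2 fold change was 0.47 (SE 0.20, limma adjusted p = 0.527), and 0.19 without WT libraries 6 and 9, the libraries with the high naive and memory sums. With all libraries kept, its paralogs were close to level: Mrps18a had 62.1 ± 6.29 and 57.4 ± 10.4 TPM in KO and WT. Mrps18b had 57.3 ± 11.2 and 59.2 ± 20.9 TPM (SD, n = 4 each). Without WT libraries 6 and 9 the log2 fold change was 0.43 for Mrps18b, above that of Mrps18c, and 0.12 for Mrps18a. Whether the paralogs differ from each other in response to genotype was not tested.

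Mrpl27, which lies near the peptidyl transferase centre, had 74.5 ± 15.8 TPM in KO and 55.5 ± 12.2 in WT (SD, n = 4 each; log2 fold change 0.42, limma adjusted p = 0.573). Mrpl14, a protein of the subunit interface, had 99.2 ± 20.1 and 77.9 ± 12.0 TPM (0.34, limma adjusted p = 0.593), with KO library 3 at 129 TPM and the other KO libraries at 85.9 to 93.8 (0.21 without KO library 3). With KO libraries 3 and 4 left out together with WT libraries 6 and 9, the log2 fold changes were 0.03 for Mrpl27 and 0.06 for Mrpl14.

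**Figure D4:**
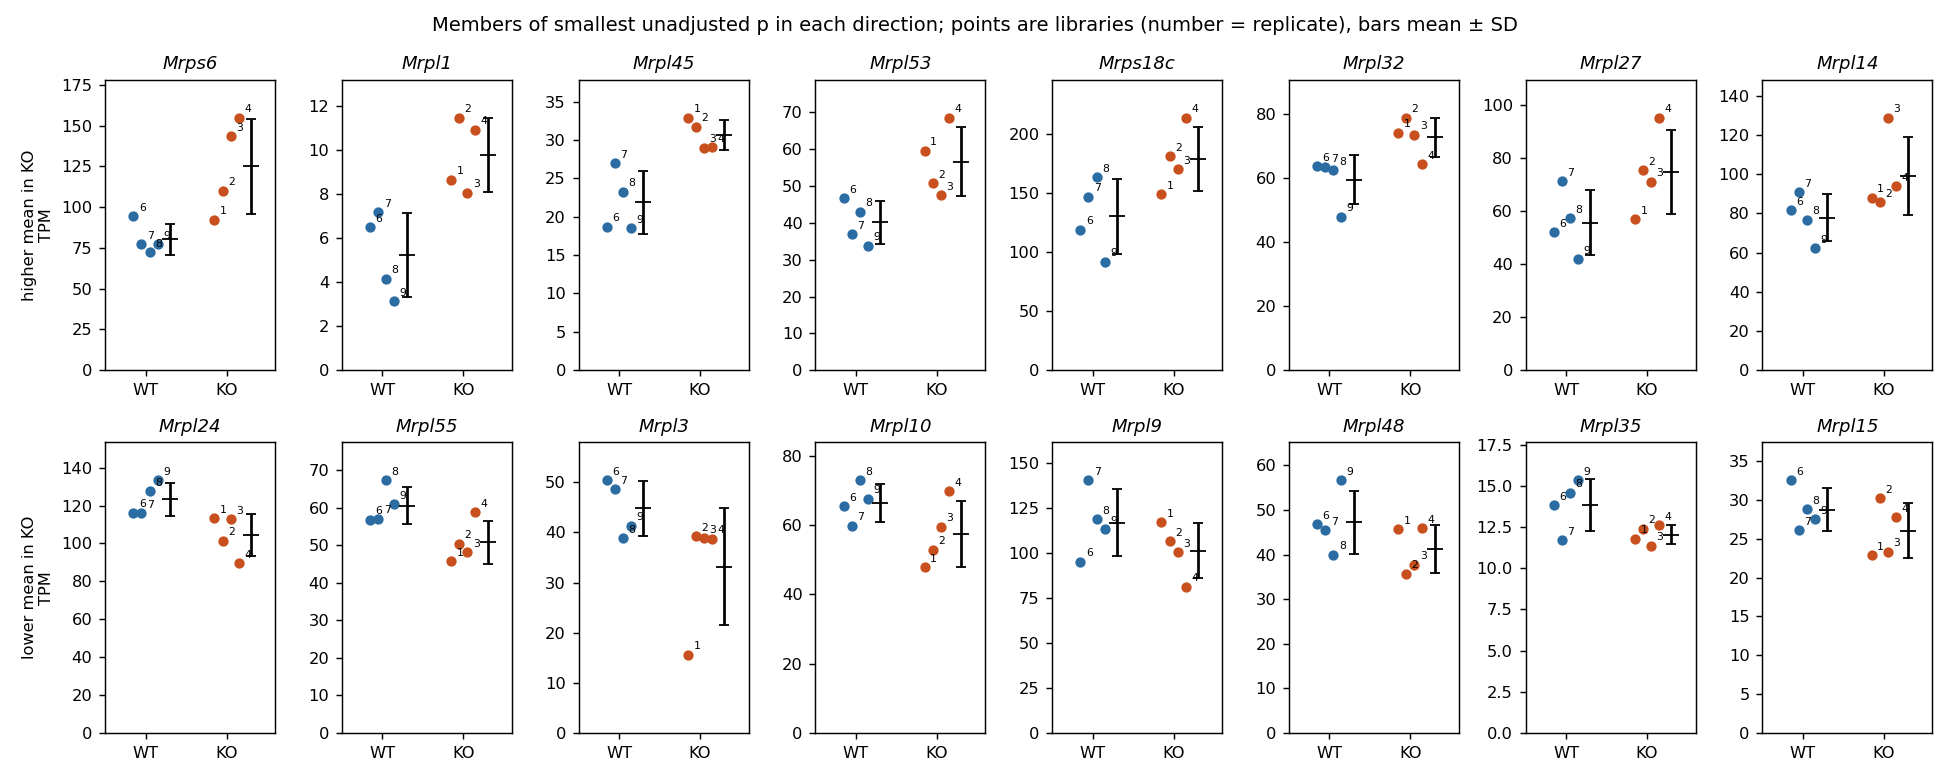
TPM (y axis, from 0) of the members of smallest unadjusted p with a higher mean in KO (top) and a lower mean in KO (bottom), for WT and KO (x axis); points are libraries with their replicate number and bars are mean ± SD. Mrpl1, Mrpl45, Mrpl53 and Mrpl32 show no overlap in the top row, and Mrpl24 in the bottom row.

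The 8 members of smallest p with lower values in KO all belong to the large subunit, as do 49 of the 76. Mrpl24 (chr3:87918131-87923450), at the exit of the peptide tunnel, had 113, 102, 113 and 89.6 TPM in KO and 116, 116, 127 and 133 TPM in WT. The groups did not overlap, though KO libraries 1 and 3 came within a few TPM of WT. Its log2 fold change was -0.24 (SE 0.13, limma adjusted p = 0.596; exact permutation p = 0.0286). It shares 594 exonic bases with Rrnad1 on the opposite strand (7.65 to 16.6 TPM), and the library method does not mark strand.

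Mrpl3 (chr9:105053268-105077466), near the peptidyl transferase centre, had 15.6, 39.3, 38.9 and 38.7 TPM in KO and 50.4, 48.6, 38.9 and 41.3 TPM in WT. KO library 1 stood far below the others. The value of -0.51 on the log2 scale (SE 0.29, limma adjusted p = 0.629) was -0.19 without KO library 1 and -0.82 without KO libraries 3 and 4. Mrpl55 had 50.8 ± 5.73 and 60.6 ± 4.89 TPM in KO and WT (SD, n = 4 each; log2 fold change -0.25, limma adjusted p = 0.602). Mrpl10, which forms the base of the stalk that recruits translation factors, had 57.5 ± 9.52 and 66.5 ± 5.43 TPM (-0.22, limma adjusted p = 0.685). Mrpl9, Mrpl48, Mrpl35 and Mrpl15 had log2 fold changes of -0.20, -0.19, -0.18 and -0.14, with overlapping groups. Single libraries moved several of these by over 1.5 times: Mrpl10 to -0.13 without KO library 1, Mrpl9 to -0.10 without KO library 4, Mrpl48 to -0.098 without WT library 9 and Mrpl15 to -0.082 without WT library 6.

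For 5 further members with known places in the ribosome the means were close. Mrpl12, present in several copies on the factor-binding stalk, had 94.2 ± 14.2 TPM in KO and 88.9 ± 11.7 in WT (SD, n = 4 each). Mrpl11, at the base of that stalk, had a mean of 8.50 TPM in both groups. Mrps12, a protein of the decoding centre, had 56.7 ± 5.34 and 56.9 ± 14.9 TPM. Mrps7, of the head of the small subunit, had 47.6 ± 5.57 and 42.2 ± 10.7 TPM. Mrpl23, at the tunnel exit, had 170.4 ± 9.11 and 189 ± 53.4 TPM. In each of these 5 the difference was under the larger SD. Mrpl46 and Mrps11, whose starts lie head to head on chromosome 7, had 44.8 ± 3.32 and 39.5 ± 12.9 TPM, and 32.3 ± 5.36 and 33.6 ± 12.8 TPM. Mrps36 had 100.1 ± 15.2 TPM in KO and 80.4 ± 16.9 TPM in WT (log2 fold change 0.32, limma adjusted p = 0.629), and -0.02 without both pairs of libraries.

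Members also differed in how steady they were, whatever the genotype. Mrps30 was the steadiest, with 37.5 to 45.0 TPM in KO and 38.2 to 42.9 TPM in WT, a ratio of highest to lowest of 1.20. Mrps28, named after its values were seen, varied most. It had 30.1, 40.8, 35.6 and 53.4 TPM in KO and 47.1, 14.8, 20.5 and 57.4 TPM in WT, with WT libraries 6 and 9 high and WT libraries 7 and 8 low, a ratio of 3.87. Over the set the median SD within groups was 0.27 on the log2 scale, against 0.37 over all tested genes, 0.19 for respiratory chain subunits and 0.34 for cytosolic ribosomal proteins.

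KO library 4 was the highest library for 20 members (26.3%; 21.1% of all tested genes), and WT libraries 9 and 6 were the lowest for 17 and 15 members (22.4% and 19.7%; 17.9% and 21.1% of all tested genes). KO library 2 was the highest for 10.5% of members (4.77% of all tested genes), KO library 1 for 3.95% (7.81%), and WT library 8 was the lowest for 13.2% (7.99%). KO libraries 3 and 4 were both above every other library for 13 members (17.1%; 14.2% of all tested genes), among them Mrps6, Mrpl14 and Mrpl52. WT libraries 6 and 9 were both below every other library for 12 members (15.8%; 17.3%), among them Mrpl33, Mrpl45 and Mrps18c.

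The sum over the set put the small differences in proportion. It was 5209, 5775, 5843 and 6194 TPM in KO and 5016, 5598, 5529 and 5154 TPM in WT. The means were 5755 ± 408 and 5324 ± 283 TPM (SD, n = 4 each), and the groups overlapped. Cytosolic ribosomal proteins moved far more between libraries: they held 29.8%, 28.1%, 22.2% and 20.4% of all TPM in KO and 36.8% and 36.4% in WT libraries 6 and 9, with 22.7% in WT library 8 and slightly more in WT library 7. WT libraries 6 and 9 stood highest, and 70 of 85 of these genes (82.4%) were higher in both than in every other library. The same held for 3 of 76 members (3.95%) and for 7.43% of all tested genes. The cytosolic sum was 32.9 to 57.3 times the mitochondrial one in KO and 41.1 to 73.3 times in WT. TPM is a share of a fixed total, so the share was also computed with these genes set aside. Computed without the cytosolic ribosomal genes, the mitochondrial set held 0.742%, 0.803%, 0.751% and 0.778% of TPM in KO and 0.793%, 0.727%, 0.716% and 0.811% in WT. The means of 0.769% ± 0.027 and 0.762% ± 0.047 differed by less than the SD, and WT libraries 6 and 9, the lowest of the 8 by the sum, were with KO library 2 the highest by this share.

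**Figure D5:**
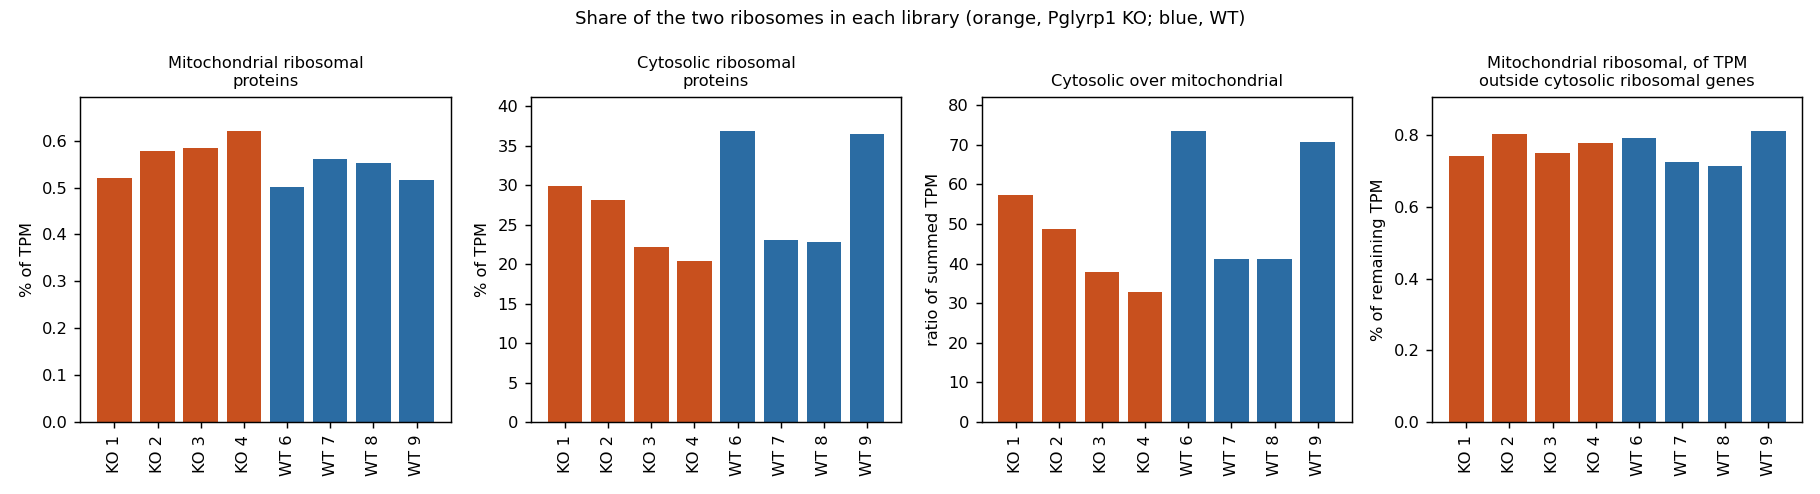
Bars from 0 for each library (x axis; orange, KO; blue, WT) of the share of the mitochondrial set, the share of cytosolic ribosomal proteins, the ratio between them, and the mitochondrial share of TPM outside the cytosolic ribosomal genes (y axes as labelled). Cytosolic ribosomal proteins range from 20.4% to 36.8% of TPM, while the mitochondrial set stays between 0.502% and 0.619%.

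The proteins that the mitochondrial ribosome makes join nuclear-encoded partners in the respiratory chain. The summed level of these partners was 4.86 to 5.11 times that of the mitochondrial ribosomal set in KO and 4.61 to 5.12 times in WT. The respiratory chain subunits had a median log2 fold change of 0.16 (67 of 77 positive) and the cytosolic ribosomal proteins -0.21 (8 of 83 positive), beside 0.11 for the mitochondrial set. Of the respiratory chain subunits 34 of 83 (41%, against 17.3% of all tested genes) were below every other library in both WT 6 and WT 9, the libraries with the high naive and memory sums; its part in that median was not tested. Neither compared set had a gene past the limma adjusted threshold. At an unadjusted limma p under 0.05 there were 5 higher and 2 lower respiratory chain subunits, and 1 higher and 0 lower cytosolic ribosomal proteins. The shares over all tested genes were 6.01% higher and 3.07% lower.

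Other genes of mitochondrial gene expression were read from 5 lists. Of their 77 genes 0 were past the limma adjusted threshold, and 1, Chchd1, had an unadjusted limma p under 0.05. Over all tested genes 6.01% were higher and 3.07% lower at that unadjusted limma p, and 55.2% had a positive fold change. Of the 7 subunits named otherwise, 4 had a positive fold change (median 0.06). Chchd1, a small-subunit protein, had 105, 110.0, 107 and 112 TPM in KO and 90.6, 58.5, 75.7 and 77.1 TPM in WT. Its groups did not overlap and the KO libraries were nearly equal (log2 fold change 0.54, SE 0.15, limma adjusted p = 0.395). Gadd45gip1, of the large subunit, had 41.7 ± 1.55 and 38.8 ± 7.46 TPM (SD, n = 4 each).

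Of 25 genes for assembly of the ribosome and modification of its RNA, 10 had a positive fold change (median -0.10). Malsu1, an assembly factor that binds the large subunit at Mrpl14, had 47.4 ± 7.19 TPM in KO and 37.9 ± 6.20 in WT (SD, n = 4 each; log2 fold change 0.32, limma adjusted p = 0.597). Mrm1, a ribosomal RNA methyltransferase, had 9.53 ± 1.98 and 14.1 ± 4.03 TPM (-0.50, limma adjusted p = 0.588).

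Of 15 translation factors 9 had a positive fold change (median 0.01). The elongation factor Tufm had 107 ± 13.5 and 118 ± 6.74 TPM, and Gfm2, a factor of ribosome recycling, 12.4 ± 0.697 and 15.1 ± 3.54 TPM. Of 20 genes for charging mitochondrial tRNAs 10 were positive (median 0.01). Pars2, the prolyl-tRNA synthetase, had 4.16, 4.53, 2.99 and 5.47 TPM in KO and 9.35, 6.30, 5.56 and 5.90 TPM in WT. The groups did not overlap, by a margin under 1 TPM (log2 fold change -0.55, limma adjusted p = 0.55). Gatb, listed under its older symbol Pet112, had 6.25 ± 1.80 and 9.08 ± 1.66 TPM (SD, n = 4 each).

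Of 10 genes for mitochondrial transcription and RNA stability 5 were positive (median 0.11). Slirp, which protects mitochondrial messengers, had 198, 169, 253 and 272 TPM in KO and 185, 156, 169 and 172 TPM in WT, with KO libraries 3 and 4 the highest (log2 fold change 0.36, limma adjusted p = 0.56). Pnpt1, a polynucleotide phosphorylase, had 28.4 ± 5.19 and 21.9 ± 2.53 TPM (SD, n = 4 each; 0.36, limma adjusted p = 0.578).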

How the data were processed

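RNA from 8 libraries, 4 per genotype, was made into full-length cDNA with a modified SMART-Seq2 method and Nextera XT, which do not mark strand, per the labels' protocols. The deposited values are a score that the authors' file names a TPM-normalized count: whole numbers summing to 2223162 to 3342847 per library, neither raw counts nor TPM. The submitters' processing notes name RSEM 1.3.3 and mm10; the scaling and rounding step is not given in the sources used here. Read depth is therefore unknown and no counting interval is given.

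Values were divided by each library's sum and multiplied by 1000000. The test had been planned for TPM and was applied to these values: limma 3.58.1 (R 4.3.3) on log2(TPM + 1), mean trend, group only, Benjamini-Hochberg at 0.05 over genes that reached 1 TPM in 4 or more libraries. This scale understates the change of low genes. Exact permutation tests were two-sided and unadjusted, and groups of 4 that do not overlap always give p = 0.0286 by them. The design text counts 4 mice per genotype. Members named are the 8 of smallest p in each direction, the 5 of highest level and 15 with known roles or shared promoters; other lists give their 2 of smallest p. The members follow a rule on symbols, but that rule and the lists were chosen with earlier results of these data known. Rps6k kinases and Rps19bp1, and Cox4nb and Atp5sl, match the name patterns of the compared sets and were left out. Gene coordinates are RefSeq's (GRCm38.p6, mm10); transcript lengths, neighbours and exon overlaps are from GENCODE vM21. Code was tested on simulated data. Tables were handled with Python 3.11.15 and pandas 2.3.3.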

Additional observations from a re-analysis of the deposited data

Results flagged for a closer look

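In 4 of 98 groups of 4 libraries, 1 library stood far from the other 3 by Dixon's test at the 95% level; chance flags about 1 in 20 groups, or 4.9 here. Mrpl32 was at 48.0 TPM in WT library 9 and at 62.5 to 63.8 TPM in the other WT libraries. Mrpl3 was at 15.6 TPM in KO library 1 and at 38.7 to 39.3 TPM in the other KO libraries. Among genes that are not members, Mrm1 was at 6.58 TPM in KO library 3 (others 10.3 to 10.7) and Pnpt1 at 18.1 TPM in WT library 9 (others 22.8 to 23.6).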

How the results depend on the processing

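No member passed the adjusted threshold in any of 20 alternative settings (smallest limma adjusted p 0.244), and 18 of 32 named members kept their sign in all of them. Settings that change only the variance estimate or the filter on low values leave the members' fold changes as they are, so no sign could turn there. Over all genes 3 passed as reported, 2 to 9 when 1 library was left out (9 without KO library 2, 5 without KO library 1), 2 with a pseudocount of 5, 5 without the KO pair 3 and 4, 5 without the WT pair 6 and 9, and 10 without both pairs. The members' median log2 fold change was 0.055 to 0.18 leaving out 1 library, highest without KO library 1 and lowest without KO library 4. It was 0.0052 with quantile normalization, -0.022 with the cytosolic ribosomal and 20 most abundant genes removed, and -0.0089 without both pairs.

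The reversed values of single members were at most 0.26 in size. With quantile normalization they were -0.022 for Mrpl33, -0.10 for Mrps16, -0.033 for Mrpl12, -0.073 for Mrps12, -0.063 for Mrps11, -0.090 for Mrps18b and -0.054 for Mrps30. With the cytosolic ribosomal and 20 most abundant genes removed they were -0.094 for Mrps16, -0.053 for Mrpl12, -0.11 for Mrps12, -0.11 for Mrps11, -0.0081 for Mrps18a, -0.12 for Mrps18b and -0.094 for Mrps30. With median-ratio scaling they were -0.0071 for Mrps16, -0.023 for Mrps12, -0.030 for Mrps11, -0.038 for Mrps18b and -0.0078 for Mrps30. Without KO libraries 3 and 4 they were -0.081 for Mrps12, -0.060 for Mrps18b and -0.045 for Mrps30. Without WT libraries 6 and 9 they were -0.17 for Mrpl33, 0.036 for Mrpl30, -0.097 for Mrps21, -0.079 for Mrps16, 0.20 for Mrpl23 and -0.26 for Mrps11. Without both pairs they were -0.18 for Mrpl33, -0.016 for Mrpl52, -0.20 for Mrps21, -0.063 for Mrps16, 0.23 for Mrpl23, -0.029 for Mrps12, -0.26 for Mrps11, -0.025 for Mrps30 and -0.022 for Mrps36. Leaving out 1 library, Mrpl30 ranged from -0.097 to 0.063, Mrps16 from -0.087 to 0.11, Mrpl11 from -0.15 to 0.19, Mrpl23 from -0.24 to 0.055, Mrps12 from -0.10 to 0.18, Mrps11 from -0.25 to 0.22 and Mrps18b from -0.24 to 0.18. The cause of these reversals was not tested.

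No paired analysis was possible because the genotypes share no replicate number: KO has 1 to 4 and WT 6 to 9. Without read counts the depth behind the values is unknown.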
